A study of Homo sapiens with 4 samples.

Results

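The table of gene expression held 1089 loci that StringTie assembled from the reads and that carry an identifier of its own (MSTRG followed by a number) in place of a gene. They were chosen by that identifier alone, out of 59263 rows in all. The other 58174 rows carry an Ensembl gene identifier and are called named rows here. An assembler writes a locus of its own where read coverage and splice junctions form a transcript that it does not join to a catalogued gene. Such loci are known to hold alternative starts and ends of genes, retained introns, RNA from repeated sequence, and long noncoding RNA between genes. Overlapping assemblies on a strand draw on the same reads, so a count on a locus and a count on the gene around it are not independent measurements.

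The study asked how radiation changes the transcriptome of pancreatic cancer cells. SW1990 and PANC-1 are established human pancreatic cancer cell lines, and SW1990 cells were grown in another medium than the DMEM used for PANC-1 cells. Each line gave 1 unirradiated library and 1 library of cells that had received 10 Gy of X-rays, so there were 4 libraries and no replicate of any condition. The time between irradiation and RNA extraction is not given in the sources used here, and the RNA is described both as depleted of ribosomal RNA and as prepared with an mRNA kit. KRT8, a keratin of simple epithelia, was at 1352 and 1888 FPKM (fragments scaled to transcript length and library depth) in unirradiated and irradiated SW1990 cells, and at 786 and 851 FPKM in PANC-1 cells. The epithelial adhesion molecule EPCAM was at 217 and 218 FPKM in SW1990 cells but at 2.28 and 2.81 FPKM in PANC-1 cells. Of the markers of other cell types, the leukocyte gene PTPRC was at most 0.0173 FPKM in any library, the endothelial PECAM1 at most 0.0131, the hepatocyte ALB at most 0.298 and INS of beta cells at 0. The fibroblast collagen gene COL1A1 was at 1.40 and 2.85 FPKM in SW1990 cells and at 8.44 and 11.0 FPKM in PANC-1 cells, above EPCAM in the latter, and its part in the results was not tested.

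Sequences of 3 kinds are shown because loci lie across them or start at them. They describe the places of the loci, not the RNA that was counted. The first is the U2 small nuclear RNA, the part of the spliceosome that pairs with the intron branch point, because 2 of the 10 loci with the highest mean FPKM, MSTRG.14077 and MSTRG.14078, lie across its gene array on chromosome 17. The copy RNU2-1 lies at chr17:43233787-43233977 on the minus strand of GRCh38 (GENCODE release 29). Capitals mark the stretch that pairs with the branch point and, after it, the Sm binding site.
RNU2-1: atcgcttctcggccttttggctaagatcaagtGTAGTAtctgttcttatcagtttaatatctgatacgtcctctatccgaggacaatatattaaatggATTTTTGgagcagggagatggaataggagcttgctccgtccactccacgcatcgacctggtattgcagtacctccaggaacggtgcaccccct
Of the 13 U2 copies in the array, 11 have this sequence exactly, 1 differs from it at 1 base and 1 is 192 bases long instead of 191. Reads from these copies can be assigned to any of them, so counts on single U2 rows are uncertain.

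The second set is the starts of loci whose 5′ end fell in a promoter window of RefSeq (250 bases before a gene start to 50 after it, GRCh38.p14, same strand). These are the SLMAP locus MSTRG.23212, which rose after radiation in both lines, the ZC3HC1 locus MSTRG.31956, which fell in both, the CEMIP locus MSTRG.11546, which had counts in SW1990 cells only, and the ANPEP locus MSTRG.11648, which had counts in PANC-1 cells only. Capitals mark the first 10 bases of each locus.
MSTRG.23212, chr3:57756154-57756283, plus strand: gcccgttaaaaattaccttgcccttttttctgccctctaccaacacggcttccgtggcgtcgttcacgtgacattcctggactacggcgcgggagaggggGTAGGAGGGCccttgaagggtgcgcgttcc
MSTRG.31956, chr7:130051356-130051472, minus strand: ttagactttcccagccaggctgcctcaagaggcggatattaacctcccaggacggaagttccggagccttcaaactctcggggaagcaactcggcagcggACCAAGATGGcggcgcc
MSTRG.11546, chr15:80779284-80779399, plus strand: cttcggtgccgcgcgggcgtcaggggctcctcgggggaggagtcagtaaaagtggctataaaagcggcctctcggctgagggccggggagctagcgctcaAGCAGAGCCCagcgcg
MSTRG.11648, chr15:89814833-89814962, minus strand: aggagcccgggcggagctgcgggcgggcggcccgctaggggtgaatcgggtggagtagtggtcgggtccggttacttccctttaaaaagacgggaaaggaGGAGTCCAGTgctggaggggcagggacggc
The SLMAP locus began 55 bases before the RefSeq start of SLMAP and the ANPEP locus 10 bases before that of ANPEP. The CEMIP locus began 14 bases after the RefSeq start.

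The third set is mature miRNAs whose hairpins lie inside loci on the same strand. A list made here from RefSeq entries held 12 such loci. This list leaves out MSTRG.24579, which contained MIR28 on its strand. The counts describe the long host RNA and not the mature miRNA. Seeds (bases 2 to 8) are in capitals, from RefSeq.
hsa-miR-23b-3p, in MSTRG.34978: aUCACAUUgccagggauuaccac
hsa-miR-27b-3p, in MSTRG.34978: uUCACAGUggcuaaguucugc
hsa-miR-24-3p, in MSTRG.34978: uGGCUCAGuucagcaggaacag
hsa-miR-1537-3p, in MSTRG.3396: aAAACCGUcuaguuacaguugu
hsa-miR-4317, in MSTRG.14982: aCAUUGCCagggaguuu
No pair of these 5 shares a seed. MSTRG.34978 (chr9:95048651-95087052, inside C9orf3) had 21 counts in each SW1990 library and 70 and 62 in PANC-1 cells. MSTRG.3396 (chr1:235828805-235883616, inside LYST) had 0 and 12 counts in SW1990 cells against 296 and 326 in PANC-1 cells. MSTRG.14982 (chr18:6290885-6384363, inside L3MBTL4) went the other way, with 126 and 120 counts in SW1990 cells and 0 in both PANC-1 libraries. MSTRG.34978 differed between the lines by edgeR's quasi-likelihood test on all rows (adjusted p = 0.0397). MSTRG.3396 and MSTRG.14982 entered that test through the line where they are high, so only their counts are given. All 3 loci were chosen after their values were seen. Of the 12 listed loci with a hairpin 11 were tested. Of these, 4 (36.4%) differed by more than 2-fold at an adjusted p under 0.05, near the 32.9% of all rows. The 4 include MSTRG.3396 and MSTRG.14982, so this share rests in part on loci that entered the test through 1 line. MSTRG.24579 is outside this count, and it was tested and not called (log2 1.04, adjusted p = 0.0612, edgeR's quasi-likelihood test).

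Most loci lay in or on genes that the table already listed. A total of 830 loci (76.2%) shared bases with a named row on the same strand. For 816 of these loci (98.3%) the row with the most shared bases was a protein-coding gene in GENCODE release 29. Another 39 loci shared bases only with a row on the other strand, 56 lay within 5000 bases of a named row, and 164 (15.1%) were farther away and are called intergenic. The 220 loci that shared no base with a named row were between 7 and 3597179 bases from one (median 20481), and 92 of them met a RefSeq gene, of which 67 met a long noncoding RNA gene. By place on the strand, 483 loci (44.4%) lay inside a named row and met one of its exons or that of another row, 249 (22.9%) lay inside a row in introns only, 57 overlapped a row in part and 41 contained one whole without lying inside another.

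The loci had a median span of 7579 bases, from 238 to 734190, against 15474 bases for named rows with more than 3 counts in a library. Intron-only loci were shorter (median 2499 bases) than those that met an exon (median 12263 bases). The longest was MSTRG.24579 on chromosome 3 (chr3:188152991-188887180), which covered most of LPP, a scaffold protein gene of focal adhesions, and contained MIR28 and FLJ42393. It was followed by MSTRG.13653 (682188 bases, intergenic, chromosome 17) and MSTRG.31389 (498525 bases, chromosome 7, containing POMZP3). The strands were nearly even, with 564 loci on the plus strand and 525 on the minus strand. Chromosome 2 held the most loci (99) and chromosome 1 held 96. Per 100 named rows with more than 3 counts in a library, there were 6.98 loci on chromosome 4, 6.21 on chromosome 7 and 6.01 on chromosome 2, but 2.20 on the gene-dense chromosome 19 and 2.13 on the X chromosome. The Y chromosome, with 5 loci and 26 such rows, had 19.2.

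**Figure D1:**
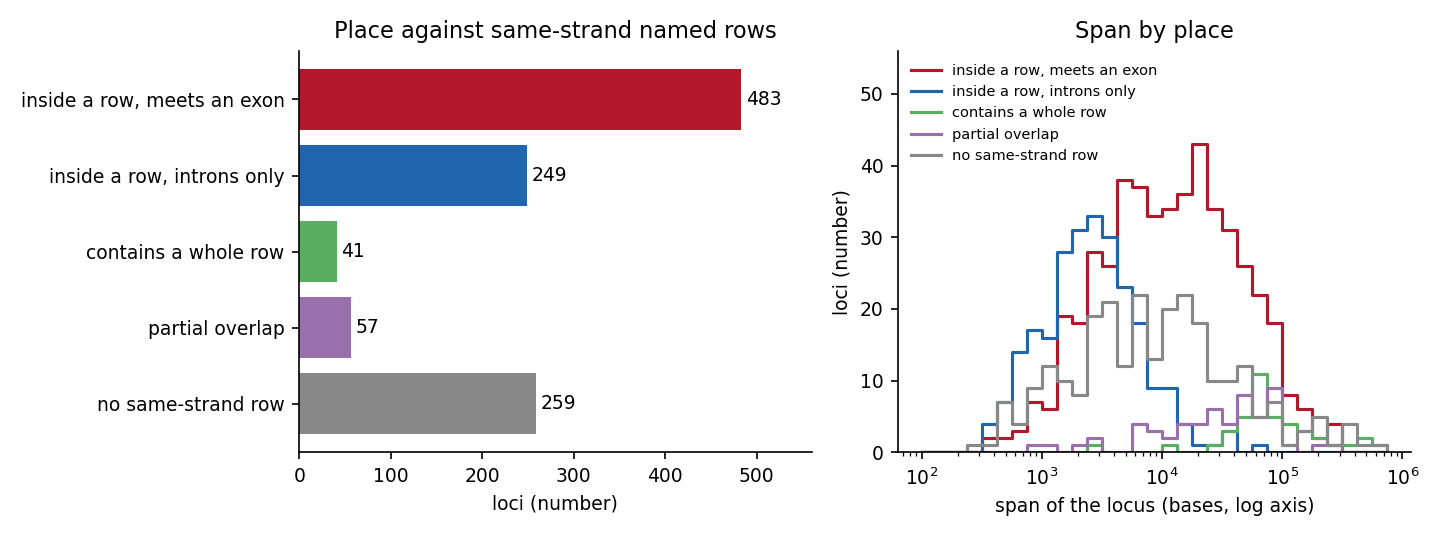
Number of loci by their place against named rows on the same strand (left, bars) and the distribution of their spans in bases on a log axis (right, one line per place). The 483 loci that met an exon were the most numerous, and the 249 intron-only loci sat at shorter spans.

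The ends of the loci often coincided with annotated transcript ends. For 228 loci (20.9%) the 5′ end was the first base of a GENCODE transcript, for 229 (21.0%) the 3′ end was the last base of one, and for 118 both held. A RefSeq promoter window on the same strand held the 5′ end of 146 loci (13.4%), compared with 40.4% of the named rows with more than 3 counts in a library. A locus was not always alone: 127 loci shared bases with another locus, and 95 contained at least 1 whole named row on their strand.

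Counts and FPKM together show the length over which a locus was normalised, and so whether it was treated as spliced. Dividing the counts by the FPKM and scaling so that single-exon named rows come to their span (median 100.1%, n = 1136) gave an implied transcript length for the 601 loci with at least 50 counts in a library. Its median was 1403 bases, or 19.98% of the span, and for multi-exon named rows it was 7.45%. Intron-only loci came to a median of 82.5% of the span, and 44 of 163 were within 5% of it, as an unspliced transcript would be. Loci that met an exon came to 8.71%, and 7 of 270 were within 5% of their span. An example of the unspliced kind was MSTRG.5231, 2918 bases long at chr11:2254906-2257823 and 10672 bases from ASCL2, whose implied length was 98.8% of its span.

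The loci took a small share of the reads. They held 0.487% (95% Wilson interval 0.484 to 0.490) of 17939210 counts in unirradiated SW1990 cells and 0.453% (0.450 to 0.456) of 18388969 in irradiated ones. In PANC-1 cells they held 0.545% (0.542 to 0.548) of 23451153 counts before radiation and 0.635% (0.632 to 0.639) of 20154644 after it. These intervals cover counting error only, since no condition was repeated. Without the single locus MSTRG.21178 the shares were 0.394%, 0.373%, 0.431% and 0.467% in the same order, so the share still moved down in SW1990 cells and up in PANC-1 cells.

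Although few reads fell on them, the loci were detected more widely than the catalogue as a whole. At least 1 FPKM was reached by 665, 658, 618 and 680 loci in unirradiated and irradiated SW1990 and unirradiated and irradiated PANC-1 cells, which is 61.1%, 60.4%, 56.7% and 62.4%, against 24.4% to 25.6% of named rows. More than 3 counts in all 4 libraries were found for 663 loci (60.9%) and 27.6% of named rows, and 39 loci had 0 counts everywhere. Each locus was assembled from reads of some library whereas a named row comes from a catalogue, and the part of this in the higher share was not tested. Among rows with more than 3 counts the median level was lower for loci (1.71 to 1.99 FPKM) than for named rows (4.27 to 4.60 FPKM). Detection differed by place. Intron-only loci had more than 3 counts in all 4 libraries in 85.1% of cases and intergenic loci in 17.1%.

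The most abundant locus was the start of the ribosomal RNA precursor. MSTRG.21178 (chr21:8433235-8436894, plus strand) began 13 bases after the RefSeq start of RNA45SN1 and ran 19 bases into RNA18SN1, so nearly all of it is the external spacer that is cut off and degraded when ribosomal RNA matures. It had 16766 and 14640 counts (367 and 310 FPKM) in unirradiated and irradiated SW1990 cells and 26919 and 34004 counts (461 and 668 FPKM) in PANC-1 cells. After radiation its level changed by -0.20 on the log2 scale in SW1990 cells and by 0.47 in PANC-1 cells, both under the 2-fold limit. It alone took 17.6% to 26.6% of all locus counts. Ribosomal RNA genes are repeated, so this position stands for all copies whose reads were placed there.

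The U2 array gave the next level. MSTRG.14077 (chr17:43231473-43301947, minus strand) spans all 13 U2 copies within LINC00854 and had 2802 and 2770 counts in SW1990 cells but 482 and 918 in PANC-1 cells. Its implied length was 848 bases, longer than U2 itself. The 13 U2 rows together moved the other way between the lines, with 2217 and 2345 counts in SW1990 cells and 5299 and 6159 in PANC-1 cells. By edgeR's quasi-likelihood test the locus was lower in PANC-1 cells (log2 -2.17, adjusted p = 0.00626). The U2 row with the most counts was higher there by the same test (ENSG00000278774, log2 1.25, adjusted p = 0.00489), though counts on single U2 rows are uncertain. The overlapping locus MSTRG.14078 was lower in PANC-1 cells as well, with 736 and 666 counts against 243 and 213 (adjusted p = 0.00363).

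Other abundant loci lay in genes, at pseudogenes or far from any gene. MSTRG.8335, which starts at the promoter of RPL6 (a protein of the large ribosomal subunit) on chromosome 12, had 1458 and 899 counts in SW1990 cells and 734 and 544 in PANC-1 cells. MSTRG.20108 inside TRIP12, a ubiquitin ligase gene, had 1187, 1350, 2563 and 1872 counts in the same order. MSTRG.8063 (chr12:93639904-93640630), which met the pseudogene LOC642969, was close to unspliced (95.1% of its span) and had 406, 431, 658 and 690 counts. None of these 3 passed the radiation limits in either line. MSTRG.19128, opposite the proteasome gene PSMD14 and across the pseudogene MXRA7P1, had 79, 150, 320 and 216 counts. The intergenic MSTRG.7380 and MSTRG.26699 were also among the 10 loci with the highest mean level (26.7 and 17.5 FPKM). MSTRG.36420 inside MORF4L2, a chromatin protein gene of the X chromosome, had 70 and 55 counts in SW1990 cells against 381 and 296 in PANC-1 cells (adjusted p = 0.00435 by edgeR's quasi-likelihood test).

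The radiation question was asked within each line by comparing the reads of 1 irradiated with 1 unirradiated library over the whole table. A row was called when it passed a false discovery rate of 0.001 and a fold change above 2, with at least 1 FPKM in a library. This compares the libraries, not the conditions, and has no replicate check. In SW1990 cells 108 of 769 loci tested (14.0%) changed, 57 higher and 51 lower, where 4.61% of all rows tested changed, 2.51% higher and 2.1% lower. In PANC-1 cells 104 of 740 loci (14.1%) changed, 58 higher and 46 lower, where 5.11% of all rows changed, 2.6% higher and 2.5% lower. Named rows alone changed in 4.14% and 4.67% of cases. No test of the difference between loci and named rows was run.

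The share was higher for loci at every count level from 10 counts up in both lines. Among rows with 25 to 49 counts in the higher library, 15.9% of 189 loci and 5.86% of 1024 named rows changed in SW1990 cells, and 14.1% of 163 loci and 6.32% of 839 named rows in PANC-1 cells. Among rows with 100 to under 200 counts the shares were 14.0% of 136 loci and 8.78% of 1504 named rows in SW1990 cells, and 15.2% of 138 loci and 9.16% of 1419 named rows in PANC-1 cells. Some changes were between near absence and clear presence. Of the changed loci, 43 of 108 (39.8%) in SW1990 and 35 of 104 (33.7%) in PANC-1 cells had 3 counts or fewer in 1 library. Of the changed named rows, 10.4% and 7.34% did. With at least 50 counts in one library, 3 counts or fewer stood in the other for 15 of 422 loci (3.55%) and 0.163% of named rows in SW1990 cells, and for 11 of 454 loci (2.42%) and 0.163% of named rows in PANC-1 cells. A locus can be assembled from the library where it is high alone, and the part of this in these shares and in those of changed loci was not tested.

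Loci that met an exon made up most of the changes and intron-only loci few. Of the loci inside a named row that met an exon, 75 of 357 (21.0%) changed in SW1990 cells and 75 of 342 (21.9%) in PANC-1 cells. Of intron-only loci, 7 of 217 (3.23%) and 5 of 184 (2.72%) changed, below the share of all rows in each line. The gap was as wide among loci with 25 to under 200 counts in the higher library, at 23.1% of 238 against 3.90% of 154 in SW1990 cells and 24.2% of 231 against 3.20% of 125 in PANC-1 cells. Loci with no named row on their strand were between, with 11 of 119 (9.24%) and 13 of 143 (9.09%). Named lincRNA rows changed in 5.19% of 520 and 8.37% of 442 cases, and named antisense rows in 4.38% of 571 and 6.5% of 477. Tested loci that met an exon had 3 counts or fewer in 1 library in 46 cases (12.9%) in SW1990 and 29 (8.48%) in PANC-1 cells. For intron-only loci there were 3 (1.38%) and 3 (1.63%), and the part of this in the gap was not tested.

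**Figure D2:**
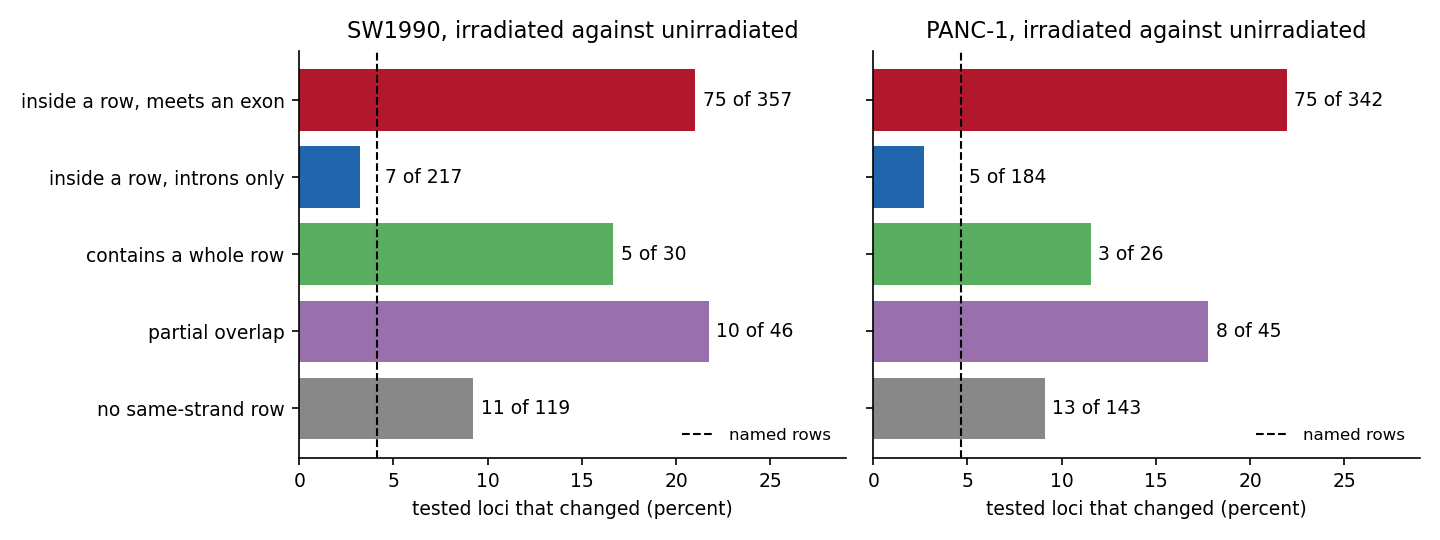
Percent of tested loci that changed after radiation in SW1990 cells (left) and PANC-1 cells (right), by place against named rows on the same strand. Bars carry the number changed of the number tested, and the dashed line is the share among named rows. Loci that met an exon stood at 21.0% and 21.9%, and intron-only loci under the dashed line in both lines.

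Of the 524 loci tested in both lines, 59 changed in the SW1990 line, 64 changed in the PANC-1 line and 17 changed in both, which is 28.8% and 26.6% of each list. Of the 17, 7 were higher in both lines, 7 were lower in both and 3 moved in opposite directions. Of named rows, 83 changed in both, 18.9% and 16.2% of each list, and 46 of these were opposite. The lines share no library. Of the 14 loci that moved alike, 5 were called in both lines with a coefficient of variation of 0.2 assumed between libraries (MSTRG.23212, MSTRG.8527, MSTRG.20152, MSTRG.202 and MSTRG.6222), and with 0.4 only MSTRG.23212 was.

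Among the loci that rose in both lines, MSTRG.23212 (chr3:57756254-57825990, plus strand) rose the most in SW1990 cells. In PANC-1 cells 3 others, MSTRG.8527, MSTRG.13392 and MSTRG.20152, rose from 0 and cannot be ranked against it. It runs from the SLMAP promoter shown above into SLMAP, which encodes a tail-anchored membrane protein of the striatin complex. It had 2 counts before and 293 after radiation in SW1990 cells (log2 7.19, 95% counting interval 5.32 to 10.2), and 4 before and 448 after in PANC-1 cells (log2 6.94, 5.57 to 8.82). The row for SLMAP itself went from 1415 to 1282 and from 2009 to 1362 counts, so the locus appeared while its gene stayed within 2-fold.

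MSTRG.8527 (chr12:124968076-125031002, plus strand) overlapped BRI3BP, which encodes a protein that binds BRI3. It rose from 160 to 830 counts in SW1990 cells (log2 2.37, 2.12 to 2.62) and from 0 to 278 in PANC-1 cells, at least 101-fold higher against a floor of 3 counts. The BRI3BP row was called in the opposite direction in both lines, from 2818 to 288 counts (log2 -3.30) and from 1201 to 266 (log2 -2.05). Locus and row together fell by 1.42 and 1.01 on the log2 scale.

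MSTRG.12411 (chr16:30698209-30704309), inside the chromatin remodeller gene SRCAP, rose from 17 to 88 and from 6 to 105 counts. MSTRG.20152 (chr2:232697352-232735237), at the promoter of GIGYF2, a translational repressor gene, went from 1 to 46 (log2 5.52, counting interval 2.97 to 10.9) and from 0 to 40 counts (at least 14.6-fold higher). The GIGYF2 row went from 2721 to 2618 and from 2492 to 2192 counts (log2 -0.06 in each line). The rows around MSTRG.12411, SRCAP among them, went from 9479 to 8930 (log2 -0.09) and from 9382 to 8402 (log2 -0.03).

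The loci that fell in both lines lay in genes whose own rows stayed within 2-fold after scaling of the counts. The CCDC58 row in PANC-1 cells was at that limit (log2 -0.97, and from 21.8 to 10.8 FPKM). MSTRG.202 (chr1:6785518-6887787) in CAMTA1, a transcription activator gene, fell from 123 to 0 counts in SW1990 cells (at least 41.2-fold lower) and from 83 to 2 in PANC-1 cells (log2 -5.25, counting interval -8.32 to -3.35), while the CAMTA1 row went from 130 to 179 and from 318 to 327. MSTRG.6222 (chr11:73787930-73864515) in MRPL48, a mitochondrial ribosomal protein gene, fell from 103 to 0 (at least 34.5-fold lower) and from 168 to 8 (log2 -4.26). The MRPL48 row went from 475 to 396 and from 309 to 292.

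Smaller loci behaved alike. MSTRG.31956, at the ZC3HC1 promoter shown above, fell from 41 and 19 counts to 0 (at least 13.7-fold and 5.80-fold lower), and ZC3HC1 encodes a zinc finger protein of the nuclear envelope. MSTRG.3448 (chr1:244844073-244846230), inside HNRNPU and partly opposite COX20, fell from 21 and 31 counts to 0 (at least 7.03-fold and 9.46-fold lower). MSTRG.32916 in MTFR1 fell from 13 and 21 counts to 0, and its SW1990 call was lost with a minimum of 10 counts in 1 library or with no filter. MSTRG.23806 in CCDC58 fell from 73 to 5 and from 40 to 7, and the CCDC58 row stayed at 342 in SW1990 cells and went from 369 to 172 in PANC-1 cells. The other 4 loci that moved alike in both lines were outside the rule for naming and were added after their values were seen. MSTRG.25602 in SEC31A fell from 310 to 109 and from 409 to 73 counts, MSTRG.35200 across RABGAP1 rose from 118 to 238 and from 47 to 110, MSTRG.13392 in partial overlap with NAA38 from 43 to 110 and from 0 to 49, and MSTRG.28820 in DDX39B from 11 to 45 and from 33 to 65. MSTRG.35200 lost its SW1990 call with scaling by total counts, and MSTRG.28820 its PANC-1 call with DESeq2 size factors or no filter.

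**Figure D3:**
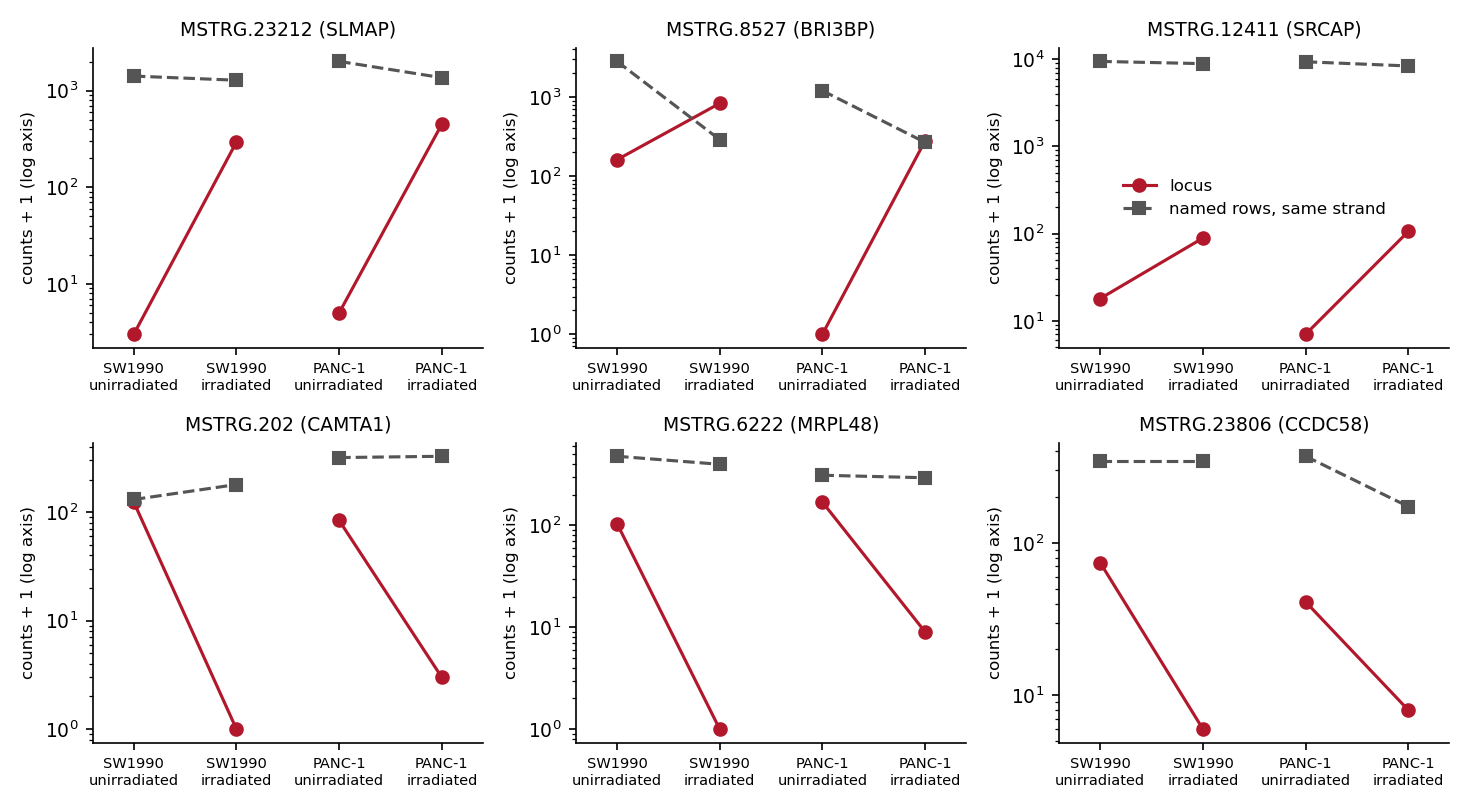
Counts plus 1 on a log axis in the 4 libraries for 6 loci that changed in both lines (red circles) and for the named rows on the same strand (grey squares, dashed), 1 panel a locus. Lines join the unirradiated and irradiated library of a cell line. The top 3 loci rose and the bottom 3 fell in both lines, whereas of the rows only BRI3BP changed by more than 2-fold in both.

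Other loci were called in 1 line and either not called or not tested in the other. In SW1990 cells MSTRG.20644, at the ASXL1 promoter on chromosome 20, went from 0 to 158 counts (at least 52.5-fold higher), and in PANC-1 cells the same locus had 703 and 776. ASXL1 encodes a chromatin regulator, and its row held 3340 and 3321 counts in SW1990 cells. MSTRG.20712 in EPB41L1 went from 0 to 106, MSTRG.29054 across TRERF1 from 0 to 90, MSTRG.15925 at the promoter of the kinetochore gene SPC24 from 0 to 88 and MSTRG.3703 in PROSER2 from 0 to 81 counts. MSTRG.25269 across GUF1 fell from 63 to 0. In PANC-1 cells MSTRG.29054 had 314 and 376 counts and was not called, MSTRG.20712 went from 0 to 8, and MSTRG.15925, MSTRG.3703 and MSTRG.25269 were at 0, so that the last 4 were not tested there. With a coefficient of variation of 0.4 assumed, MSTRG.25269 lost its call. MSTRG.20957 in VAPB fell from 198 to 0 in SW1990 cells (at least 66.3-fold lower) but was called in both lines, since it rose from 121 to 224 in PANC-1 cells.

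In PANC-1 cells MSTRG.24071 in GK5 rose from 0 to 102 counts (at least 37.2-fold higher), MSTRG.22427 at the THUMPD3 promoter from 1 to 66 (log2 6.17, counting interval 3.64 to 11.5) and MSTRG.10984 in TRIM69 from 0 to 54. MSTRG.28501 in TMEM14B fell from 99 to 0 (at least 30.2-fold lower) and MSTRG.19738 in STRADB from 84 to 0 (at least 25.6-fold lower). MSTRG.35185, at the promoter of NDUFA8, a subunit gene of respiratory complex I, fell from 60 to 0, MSTRG.11248 across HACD3 from 58 to 0 and MSTRG.2494 in RGS5 from 53 to 0. Of these 8, only MSTRG.35185 (41 and 48 counts) and MSTRG.11248 (127 and 77) were tested in SW1990 cells, and neither was called. Among those not tested there, MSTRG.24071 went from 0 to 9, MSTRG.22427 from 4 to 16 and MSTRG.10984 from 0 to 7, the direction seen in PANC-1 cells, and MSTRG.2494 from 0 to 18, the other direction. MSTRG.28501 and MSTRG.19738 had no counts in either SW1990 library. With a coefficient of variation of 0.4 assumed, MSTRG.22427, MSTRG.10984, MSTRG.35185, MSTRG.11248 and MSTRG.2494 lost their PANC-1 calls.

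Some abundant or long loci were called higher after radiation in PANC-1 cells. The intergenic MSTRG.26699 (chr5:49611488-49646257, minus strand) had 389 and 342 counts in SW1990 cells and rose from 24 to 67 in PANC-1 cells (log2 1.61, counting interval 0.92 to 2.35). MSTRG.13653 on chromosome 17 rose from 160 to 300 counts in PANC-1 cells (log2 1.03, 0.75 to 1.32) and was at 0 in SW1990 cells. MSTRG.14077, within LINC00854 at the U2 array, rose in PANC-1 cells from 482 to 918 counts (log2 1.06, 0.90 to 1.22), and the summed U2 rows and LINC00854 went from 5301 to 6159 (log2 0.34). All 3 lost their PANC-1 calls at a fold above 4 and with a coefficient of variation of 0.2 or 0.4 assumed between libraries.

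Most changed loci were a small part of the counts on their strand. With counted named rows on the strand there were 97 changed loci in SW1990 and 91 in PANC-1 cells. The median share of the locus in the sum of locus and rows was 6.39% and 6.01%, compared with 5.23% and 4.93% for loci that did not change. The sum, which is mostly the rows, stayed within 2-fold for 90 (92.8%) and 88 (96.7%) of them, compared with 98.2% and 98.6% for loci that did not change. The rows moved in the direction opposite to the locus in 52 of 97 cases (53.6%) and 44 of 91 (48.4%), compared with 45.9% and 44.3% for loci that did not change.

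In a few pairs locus and gene were both called. These were chosen after their values were seen. Of the 652 and 708 named rows called in the SW1990 and PANC-1 lines, 35 and 37 shared a strand with any locus and 6 and 7 with a called one. Of the latter, 5 in each line moved opposite to the locus, BRI3BP among them. In SW1990 cells MSTRG.16048 fell from 111 to 0 counts while C19orf53 on the same strand rose from 110 to 560, MSTRG.33820 fell from 30 to 0 while RLN2, a relaxin gene, rose from 0 to 31, MSTRG.13417 fell from 20 to 0 while AC135178.2 rose from 31 to 92, and MSTRG.35200 rose from 118 to 238 while GPR21 fell from 53 to 8. In PANC-1 cells MSTRG.5359 rose from 5 to 65 while AKIP1 fell from 704 to 290, and MSTRG.12411 rose while AC106886.5 fell from 871 to 383. MSTRG.28620 rose from 0 to 18 across the histone genes HIST1H2BE (2156 to 794 counts) and HIST1H2AE (2847 to 1142). The rows that moved with their locus were FLG-AS1 in SW1990 cells (26 to 130 counts, MSTRG.2246 from 170 to 645) and, in PANC-1 cells, SLC7A11 (5729 to 2321, MSTRG.25948 from 304 to 128) and the readthrough ATP6V1G2-DDX39B (0 to 80, MSTRG.28820 from 33 to 65). With a coefficient of variation of 0.4 assumed, of the loci in these pairs MSTRG.16048 alone in SW1990 cells and MSTRG.8527 alone in PANC-1 cells kept their calls.

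With the lines taken as the replicates of radiation, no locus passed. EdgeR's quasi-likelihood test over all 4 libraries called 0 of 870 loci at an adjusted p of 0.05 (smallest 0.313), and 0% of all rows. At an unadjusted p under 0.05 there were 39 loci (4.48%) and 4.45% of named rows. DESeq2 called 0 loci and 39 of 18180 named rows. This fit has 1 residual degree of freedom.

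The second question was how the loci differ between SW1990 and PANC-1 cells, with 2 libraries a line and treatment as a covariate in edgeR's quasi-likelihood test. The 2 libraries of a line differ in treatment and are not labelled as replicates, and the line cannot be told apart from its medium. Of 870 loci tested, 301 (34.6%) differed by more than 2-fold at an adjusted p under 0.05, near the 32.9% of all rows and the 32.8% of named rows. Of the 301, 167 were higher in PANC-1 cells (19.2%, all rows 16.7%) and 134 in SW1990 cells (15.4%, all rows 16.3%). With DESeq2 the share was 21.4%, against 25.3% of named rows.

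The intergenic loci need a separate account, since most passed the filter on low values through a single line. Of the 100 tested, 71 had 3 counts or fewer in both libraries of one line and 62 had none there. Of the same 100, 85 differed (50 with DESeq2, and 61 of 112 without the unirradiated PANC-1 library), 53 higher in PANC-1 and 32 higher in SW1990 cells. With no filter 67 of 142 (47.2%) did, beside 130 of 818 (15.9%) of the loci on the strand of a named row. With the filter, 177 of 692 (25.6%) of the latter differed, and of loci with a row on the other strand only, 17 of 29 (58.6%). Named lincRNA rows differed in 37.3% of 839 cases, antisense rows in 27.2% of 901 and protein-coding rows in 34.7% of 13616. Counting loci with at least 10 counts in both libraries of one line and 3 or fewer in both of the other gave 60 for SW1990 and 88 for PANC-1 cells, 17.7% of 837, and 9.99% of named rows. No test of these differences between groups of rows was run, and a locus seen in 1 line can be assembled from that line alone. The part of this in the share was not tested.

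**Figure D4:**
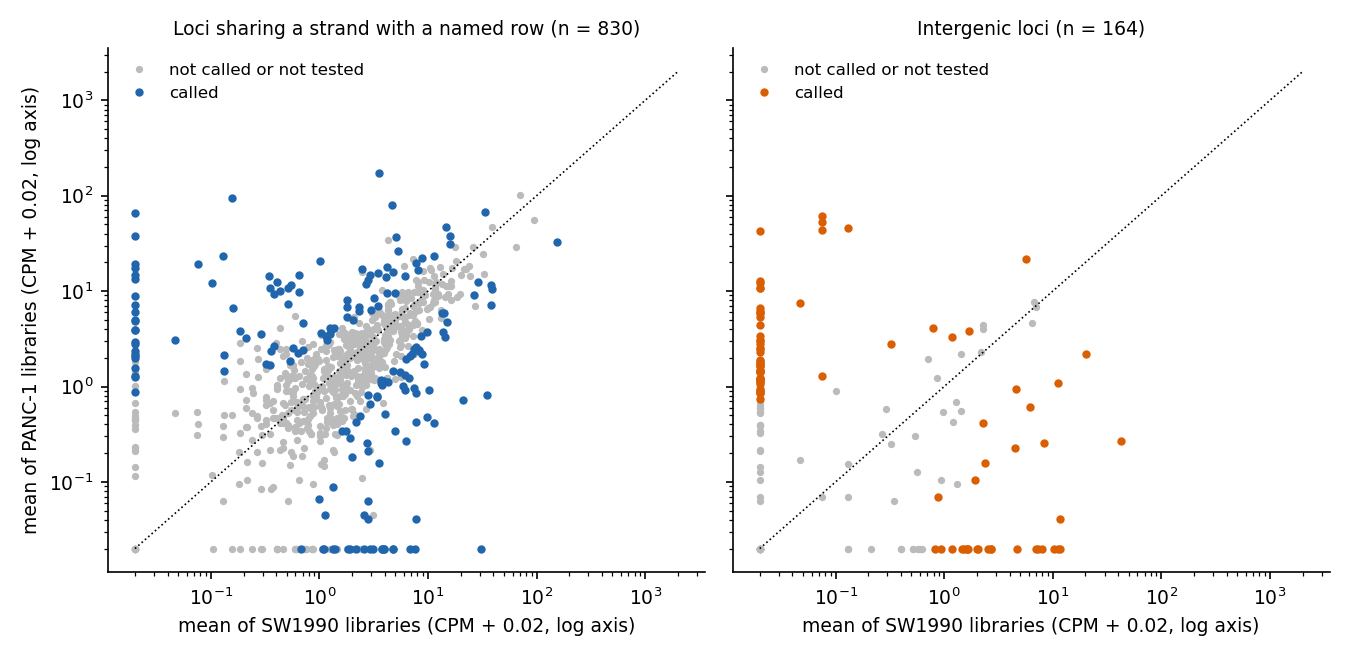
Mean CPM (counts scaled to library size) of both PANC-1 libraries against that of both SW1990 libraries, each plus 0.02 on log axes, for loci that share a strand with a named row (left) and intergenic loci (right). Coloured points differed between the lines and the dotted line marks equal values. Loci on a gene's strand followed the dotted line, while most intergenic loci that differed sat on an axis, at 0 in one line.

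Several loci with many counts in one line were absent from the other. They were named for that pattern, so only their counts are given. In SW1990 cells MSTRG.11546, at the promoter of CEMIP (a hyaluronan-binding protein gene) shown above, had 723 and 392 counts and none in PANC-1 cells. The CEMIP row had 3060 and 2046 counts in SW1990 cells and also none in PANC-1 cells. MSTRG.18541 (chr2:108235424-108316762), antisense to the sulfotransferase gene SULT1C3, had 260 and 215 counts against 0 and 0. The intergenic MSTRG.14688 on chromosome 17 had 146 and 277 and MSTRG.5231 had 261 and 142, both with none in PANC-1 cells. MSTRG.5243, which met TRPM5 on chromosome 11 and lay 185 bases from KCNQ1, had 217 and 158 against 0 and 0.

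In PANC-1 cells MSTRG.34068 (chr9:22344974-22572168) contained DMRTA1, a transcription factor gene, and had 1441 and 1398 counts against 0 and 0 in SW1990 cells. DMRTA1 itself had 347 and 301 counts in PANC-1 cells and none in SW1990 cells. MSTRG.21140 (chr21:13855739-13900637, intergenic) had 665 and 1135, and MSTRG.29336 in an intron of the potassium channel gene KCNQ5 had 843 and 800. MSTRG.6884, in an intron of the WNT5B row but in no RefSeq gene, had 498 and 356. MSTRG.11648, at the promoter of the aminopeptidase gene ANPEP shown above, had 414 and 341. All 4 were at 0 in both SW1990 libraries. The ANPEP row had 26933 and 20979 counts in PANC-1 cells and 4 and 2 in SW1990 cells. The WNT5B row was present where its locus was not, with 142 and 27 counts in SW1990 cells and 339 and 787 in PANC-1 cells. It was not called between the lines (adjusted p = 0.0779, edgeR's quasi-likelihood test).

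Further loci were at or near 0 in SW1990 cells. MSTRG.30045 (chr6:141752383-142030460) had 1393 and 1280 counts in PANC-1 cells and 2 and 0 in SW1990 cells. MSTRG.26813 (chr5:61284799-61304716) had 1533 and 797 against 2 and 0, and MSTRG.25314 on chromosome 4 had 396 and 245 against 0 and 0. MSTRG.7380 (chr12:37235563-37249554), 326033 bases from the nearest named row, had 783 and 1174 against 0 and 4. MSTRG.5497 in NAV2, a neuron navigator gene, was among the most counted loci of PANC-1 cells (4109 and 3507 against 44 and 83). Its implied length was 97.6% of a span of 29329 bases, near an unspliced length.

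Not every locus in a comparable place differed. MSTRG.26151 on the strand opposite to MARCH1, a ubiquitin ligase gene, had 383 and 270 counts in SW1990 cells and 285 and 245 in PANC-1 cells. MSTRG.31248 upstream of GTF2IRD2P1 had 71, 81, 100 and 79. By contrast MSTRG.4161, opposite FO681492.1 on chromosome 10, had 27 and 31 against 830 and 868 counts, MSTRG.2025 near PFN1P3 had 156 and 142 against 786 and 676, and MSTRG.34492 upstream of AL669942.1 had 20 and 11 against 121 and 179. These 3 passed (adjusted p = 0.000861, 0.00239 and 0.0109, edgeR's quasi-likelihood test).

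Loci and the genes around them mostly differed between the lines in the same direction. For each of 173 loci that differed and whose row with the most shared bases was tested, the row had the same sign in 164 (94.8%) and was itself called in the same direction in 122, and in no case in the other direction. Of all named rows tested, 32.8% were called. Loci that did not differ were not counted in this way. Some of the 173 passed the filter through the line where they are high, and the part of this in the shared direction was not tested. The U2 array is outside this count, since the row sharing most bases with MSTRG.14077 is LINC00854 and not a U2 copy.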

How the data were processed

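RNA-seq of 4 libraries was analysed from the deposited table. Per the labels and the study's methods, the authors trimmed reads with Trimmomatic 0.36, aligned them to GRCh38 with HISAT2 2.0 and assembled and quantified them with StringTie 1.3.3b. The deposited values are whole-number counts and FPKM per row; the counting tool and strand protocol are not given in the sources used here. The set of loci, defined by identifier alone, and the gene lists were chosen with earlier results of these data known. Positions come from the table and were compared with GENCODE release 29 and RefSeq (GRCh38.p14). Gene names turned into dates (27) were restored by identifier. Radiation was tested per line on the reads of 2 libraries (edgeR 4.0.16, exact test at dispersion 0, TMM over all rows, Benjamini-Hochberg, 0 set to 0.01), and lines by edgeR's quasi-likelihood test. Folds against 0 use a floor of 3 counts. On simulated data with 200 rows changed 4-fold, 194 (SW1990), 195 (PANC-1) and 198 (lines) were recovered, with 0, 0 and 3 false calls. The changed rows were not drawn from low-count rows. The simulated radiation data held counting error only. The simulated line data held less spread than the common coefficient of variation of 0.226 fitted to the real libraries. These recoveries therefore cannot show how many calls would be false between replicates. Named loci were the most abundant, the most changed, 10 of those called in both lines, the longest and 2 examples of each place. Sequence composition of the loci was not analysed here.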

Additional observations from a re-analysis of the deposited data

Results flagged for a closer look

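In both lines 3 loci changed, in opposite directions, and the difference between the lines was not tested. MSTRG.20957 in VAPB, a tether protein gene of the endoplasmic reticulum, went from 198 to 0 counts in SW1990 cells (log2 -10.09, a value set by the 0.01 used for a count of 0) and from 121 to 224 in PANC-1 cells (log2 1.02). Its PANC-1 call was lost with DESeq2 size factors (log2 0.99), at a fold above 4, and with a coefficient of variation of 0.2 or 0.4 assumed between libraries. MSTRG.8696 in POLR1D, a gene for a subunit of RNA polymerases I and III, went from 122 to 58 (log2 -1.08) and from 49 to 125 (log2 1.48). MSTRG.27853 in SH3RF2 went from 7 to 42 (log2 2.58) and from 46 to 10 (log2 -2.07). The calls of MSTRG.8696 and MSTRG.27853 were lost in both lines with a coefficient of variation of 0.2 or 0.4 assumed, and those of MSTRG.8696 also at a fold above 4.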

How the results depend on the processing

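Each condition has 1 library, so radiation calls within a line rest on counting error alone. With a coefficient of variation of 0.2 assumed between libraries, 37 loci passed for SW1990 and 35 for PANC-1 (4.81% and 4.73%, against 0.661% and 0.699% of named rows), and with 0.4 only 11 and 6 (1.43% and 0.811%, against 0.108% and 0.0726%). With a fold above 4 there were 68 and 59 (8.84% and 7.97%, against 1.13% and 1.15%). With scaling by total counts, 70 loci were higher and 41 lower in PANC-1 cells. Of loci that met an exon, 29 and 27 passed at 0.2, 8 and 5 at 0.4, and 44 in PANC-1 cells above 4-fold. Of intron-only loci, 0 and 0 passed at 0.2 and 0 and 0 at 0.4, 1 and 2 above 4-fold, and 8 in PANC-1 cells with scaling by total counts. Between the lines DESeq2 called 186 loci, 50 intergenic and 111 on a gene's strand, and leaving out 1 library gave 219 to 293, 61 to 80 and 127 to 174. The share of loci, 34.6% against 32.8% of named rows, became 21.4% against 25.3% with DESeq2, 22.8% against 24.8% without the unirradiated PANC-1 library and 24.3% against 27.1% without the irradiated one, but 21.6% against 16.1% with no filter and 35.8% against 30.8% with 1 FPKM needed in 1 library only. That of intergenic loci, 85%, became 50% with DESeq2, 54.5% without the unirradiated and 56.4% without the irradiated PANC-1 library, and 47.2% with no filter. With nearness set at 1000 bases, 24 loci were near a row. A few values near 0 changed sign: MSTRG.14077 in SW1990 cells (0.017 from FPKM), and in PANC-1 cells MSTRG.14078 (0.028 with total counts, 0.019 from FPKM), MSTRG.30045 (-0.023 with DESeq2 size factors, -0.049 from FPKM), MSTRG.2025 (0.0010 and 0.029) and MSTRG.26151 (0.000366 and 0.26, both in the order of MSTRG.14078). The fit over all 4 libraries, with the line as a term, pairs the libraries by line and called 0 loci. No pairing by replicate number could be made with 1 library a condition.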
